A study of Homo sapiens with 9 samples.

Results

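The genes of sterol and fatty acid synthesis were taken as 33 genes listed by symbol, and they were found in the count table through their NCBI gene identifiers. All 33 had a row among the 28395 genes of the table, and all 33 passed the filter on low counts (50 counts or more on average across the 9 libraries), which left 12695 genes tested. The list was not chosen on measured values, but it was drawn up with earlier results of these data known. They fall into 5 groups by role: 6 genes from HMG-CoA to farnesyl diphosphate, 11 from squalene to cholesterol, 5 regulators and sterol transport proteins, 5 that make acetyl-CoA, malonyl-CoA and palmitate, and 6 that lengthen, desaturate or pass on the fatty acid.

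RNA was sequenced from 3 human kidney cell lines kept stably in Plasmax, a medium modelled on the nutrients of human serum: HK2, from normal kidney and labelled as proximal tubule and parental, 786-O, from a primary clear cell renal cell carcinoma (ccRCC), and 786-M1A, which was recovered from a lung metastasis after 786-O had been injected in vivo. No line carried a further treatment, and 3 libraries were made per line. Each state is represented by 1 line, so a difference between states and a difference between these lines cannot be told apart. Replicates were dishes of the same line, and the p-values therefore measure the spread between dishes.

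The libraries held between 30212291 and 45362428 counts on genes, and the common coefficient of variation between replicates was 3.93%. Levels are given as CPM, the counts of a gene relative to its TMM-scaled library size. Of 9 kidney epithelium markers, 8 or 9 were at 1 CPM or above in each line. Of 7 proximal tubule markers, 2 were at that level in HK2 and 3 in the other lines, and LRP2, the megalin receptor of that segment, was at 0 counts in every library. In this list GGT1 was highest in HK2 (105 to 110 CPM). ANPEP was highest in 786-O (109 to 116 CPM, against 1.54 to 1.87 CPM in HK2). The 4 ccRCC markers with a row summed to 1353 to 1435 CPM in HK2, 4857 to 4943 CPM in 786-O and 6569 to 6745 CPM in 786-M1A, most of it VIM. Of these, EGLN3 was at 1.45 to 1.91 CPM in HK2 and at 45 CPM or more in every tumour library, while CA9 was at 0 counts in HK2 and at most 0.0709 CPM in the tumour lines. ANGPTL4 overlapped between the lines, at 2.46 to 2.74 CPM in HK2, 2.17 to 4.04 CPM in 786-O and 2.91 to 3.73 CPM in 786-M1A. NDUFA4L2, also on the list, had no row. Of other cell types, the adipocyte genes ADIPOQ and LEP and the leukocyte genes PTPRC and CD3E were at 0 in all 9 libraries, whereas the leukocyte list as a whole summed to 49.1 to 53.7 CPM in HK2, against 26.6 to 27.6 CPM in 786-O and 34.1 to 37.5 CPM in 786-M1A, nearly all of it CD68. In addition, 4 endothelial markers summed to at most 1.11 CPM, and 6 fibroblast markers summed to 77.8 to 87.2 CPM in HK2, against 282 to 352 CPM in 786-O and 302 to 306 CPM in 786-M1A. The largest of the fibroblast markers was COL1A1 in 786-O (261 to 329 CPM) and PDGFRB in 786-M1A (279 to 285 CPM). In these bulk libraries, fewer cells that express a gene and less RNA of it per cell cannot be told apart.

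Cholesterol and fatty acids are both built from acetyl-CoA in the cytosol and the endoplasmic reticulum. When membrane sterol is low, the escort protein SCAP carries the SREBP transcription factors to the Golgi, where they are cut and released to the nucleus, and INSIG proteins hold the complex back when sterol is plentiful. SREBP2 acts mainly on the cholesterol genes and SREBP1 mainly on the fatty acid genes. The cells of clear cell tumours store cholesterol esters and triglycerides.

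In both tumour lines the largest differences from HK2 were those of the desaturase genes FADS2 and SCD5, and most sterol genes differed by less than 2-fold. So did most of all genes tested, whose median size of log2 difference was 0.47 in 786-O and 0.51 in 786-M1A. FADS2, the elongase gene ELOVL6 and the sterol sensor gene INSIG1 were higher in 786-O and 786-M1A, whereas SCD5 and the carboxylase gene ACACB were lower. Between the tumour lines the median size of the log2 difference was 0.20, against 0.27 and 0.28 in the comparisons with HK2. However, SCD5 had no count in 786-M1A, and TM7SF2, a sterol reductase gene, was about 2-fold lower there. For MSMO1, NSDHL, SREBF1, ACLY and HMGCS1 the tumour lines also differed more from each other than either did from HK2. Over the 3 comparisons 27 of the 33 genes stayed under 2-fold, and 20 stayed under 1.5-fold. The shares of all genes tested that did so were not counted.

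Calls were made at an adjusted p under 0.05 in edgeR's quasi-likelihood test with Benjamini-Hochberg adjustment over the 12695 genes. In 786-O against HK2, 18 of the 33 genes were higher (54.5%, against 41.6% of all genes tested) and 9 were lower (27.3%, against 42.6%). At least 2-fold higher were 3 genes (9.09%, against 9.18% of all genes) and at least 2-fold lower were 2 (6.06%, against 13.1%). In 786-M1A against HK2, 18 genes were higher (54.5%, against 41.6%) and 10 lower (30.3%, against 43.3%), with 3 at least 2-fold higher (9.09%, against 10.4%) and 2 at least 2-fold lower (6.06%, against 15.0%). In 786-M1A against 786-O, 10 were higher (30.3%, against 27.9%) and 11 lower (33.3%, against 28.0%), with 0 at least 2-fold higher (against 2.03%) and 2 at least 2-fold lower (6.06%, against 4.55%). The shares past 2-fold upward were thus close to those of all genes in the comparisons with HK2. Both of these comparisons use the same HK2 libraries.

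The median log2 fold change of the 33 genes was 0.16 in 786-O against HK2, where that of all genes tested was -0.01, and it was 0.09 without replicate 2 of HK2. It was 0.15 in 786-M1A against HK2 (all genes -0.02) and 0.01 in 786-M1A against 786-O (all genes 0.00). The median size of the log2 difference, sign left aside, was 0.27 in 786-O against HK2 for the 33 genes and 0.47 for all genes, and 0.28 and 0.51 in 786-M1A against HK2. Between the tumour lines it was 0.20 for the 33 genes and 0.17 for all. FDPS, EBP and FASN passed the threshold of the edgeR test in none of the 3 comparisons, although each was called under at least 1 alternative, and 17 genes passed it in each. The same counts over all genes tested were not made.

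**Figure D1:**
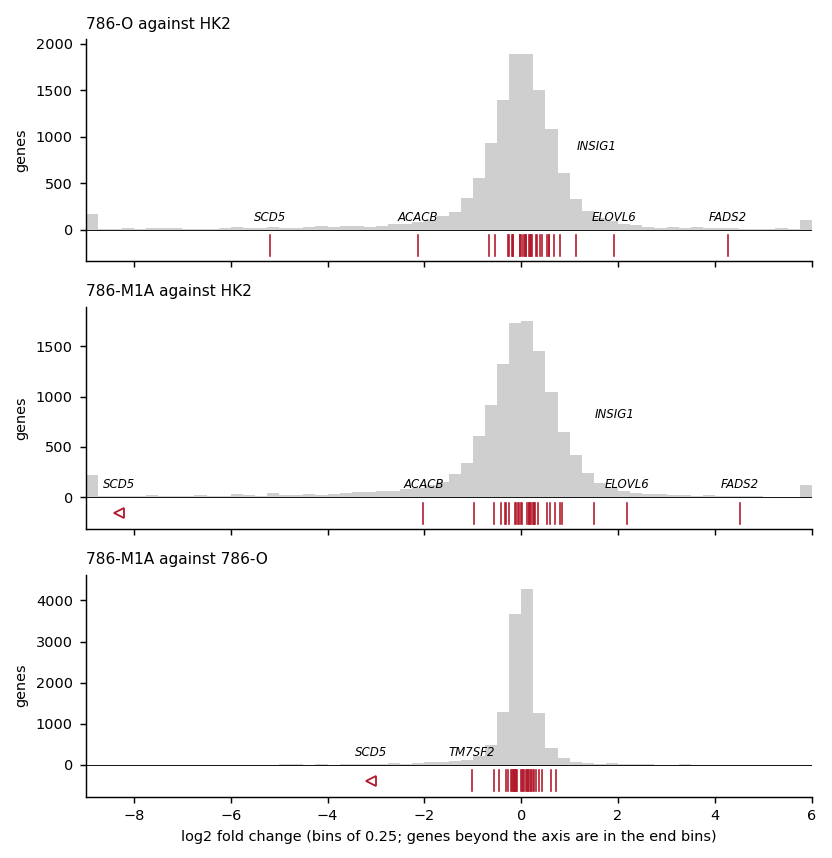
Number of genes (y axis) by log2 fold change (x axis, bins of 0.25) for all 12695 genes tested in grey, with each of the 33 sterol and fatty acid synthesis genes as a red tick below the axis, in 3 comparisons. Ticks of at least 1 in size are named, most ticks lie within the central peak, and SCD5 in both comparisons of 786-M1A is drawn as an open arrow at its bound (-8.30 against HK2 and -3.10 against 786-O) because it had no count in that line.

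Among the regulators, INSIG1, which holds SCAP and the SREBPs in the endoplasmic reticulum and is itself induced by them, differed most. It stood at 143, 148 and 153 CPM in HK2, at 347, 314 and 318 CPM in 786-O and at 454, 389 and 425 CPM in 786-M1A. The 3 lines did not overlap, and the level was lowest in HK2 and highest in 786-M1A. Its log2 fold change was 1.14 ± 0.05 (SE) in 786-O against HK2 (edgeR adjusted p = 1.07e-12), 1.51 ± 0.05 in 786-M1A against HK2 (edgeR adjusted p = 1.72e-14) and 0.37 ± 0.05 in 786-M1A against 786-O (edgeR adjusted p = 9.78e-06). For single genes, the exact two-sided permutation test with 3 libraries against 3 cannot give a p below 0.1, and it gave 0.1 for each of these comparisons.

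SREBF2, which encodes SREBP2, stood at 185, 171 and 181 CPM in HK2, at 201, 186 and 190 CPM in 786-O and at 221, 211 and 212 CPM in 786-M1A. The lines followed the order of INSIG1 without overlap, but the highest HK2 library and the lowest 786-O library nearly met. The log2 fold change was 0.10 ± 0.04 in 786-O against HK2 (edgeR adjusted p = 0.0236), 0.26 ± 0.04 in 786-M1A against HK2 (edgeR adjusted p = 3.95e-06) and 0.16 ± 0.04 between the tumour lines (edgeR adjusted p = 0.00217). The first of these calls was lost without replicate 2 of HK2 (edgeR adjusted p = 0.126), without replicate 1 of 786-O (0.141), with upper-quartile scaling (0.166) and with quantile normalization and limma (0.58).

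SREBF1, which encodes SREBP1, took another order. Its level was 113, 107 and 111 CPM in HK2, 106, 93.3 and 90.4 CPM in 786-O and 139, 128 and 122 CPM in 786-M1A. It was lowest in 786-O and highest in 786-M1A, with log2 fold changes of -0.19 ± 0.06 (786-O against HK2, edgeR adjusted p = 0.00554), 0.24 ± 0.06 (786-M1A against HK2, edgeR adjusted p = 0.00098) and 0.42 ± 0.06 (786-M1A against 786-O, edgeR adjusted p = 6.24e-06). The exons of SREBF1 share 6.75% of their bases with RAI1 on the opposite strand, and the use of strand in the counting is not given in the sources used here. Within a library, SREBF2 had 1.62 ± 0.0225 reads per read of SREBF1 in HK2, against 2.00 ± 0.105 in 786-O and 1.66 ± 0.0713 in 786-M1A (mean ± SD, n = 3). Per kb of exon SREBF2 was the higher of the pair in each line, at 22.2 against 13.4 CPM per kb in HK2, and this order was kept with the length of the MANE Select transcript in place of all exons.

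The SREBP escort gene SCAP rose slightly from 79.3 to 80.9 CPM in HK2 to 87.9 to 94.6 CPM in 786-O and 86.5 to 96.7 CPM in 786-M1A (log2 fold changes 0.18 ± 0.04 and 0.19 ± 0.04 against HK2, both called). STARD4, a carrier of sterol between membranes, was also higher against HK2 in 786-O (0.30 ± 0.05) and in 786-M1A (0.20 ± 0.05). Neither gene passed the threshold between the tumour lines, but STARD4 did so without replicate 3 of 786-M1A (-0.15, edgeR adjusted p = 0.0117). STARD4 was also called there with upper-quartile scaling (-0.11, edgeR adjusted p = 0.0483) and with quantile normalization and limma (-0.13, limma adjusted p = 0.0327). Of the 5 regulators and transport proteins, 4 rose and 1 fell in 786-O against HK2 (all genes 41.6% and 42.6%), 5 rose in 786-M1A against HK2 (all genes 41.6%), and 3 rose in 786-M1A against 786-O (all genes 27.9%). Together they reached 571 ± 9.34 CPM in HK2, rising to 773 ± 37.4 CPM in 786-O and to 920 ± 46.2 CPM in 786-M1A (SD, n = 3).

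The promoters of SREBF2 and INSIG1 are shown because both genes are known to answer to SREBPs and both rose in the same order over the lines. Sequences are the 250 bases before a RefSeq transcript start on GRCh38.p14, 5′ to 3′ on the plus strand, for SREBF2 chr22:41832855-41833104 and for INSIG1 chr7:155297628-155297877. Capitals mark the sterol regulatory element TCACCCCAC, to which SREBPs bind, in SREBF2, and the palindromic E-box CACGTG in INSIG1.
SREBF2: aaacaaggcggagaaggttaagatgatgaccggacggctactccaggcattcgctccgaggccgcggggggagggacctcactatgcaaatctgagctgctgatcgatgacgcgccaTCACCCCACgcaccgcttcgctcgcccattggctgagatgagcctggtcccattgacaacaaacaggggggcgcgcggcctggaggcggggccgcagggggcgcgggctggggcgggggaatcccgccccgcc
INSIG1: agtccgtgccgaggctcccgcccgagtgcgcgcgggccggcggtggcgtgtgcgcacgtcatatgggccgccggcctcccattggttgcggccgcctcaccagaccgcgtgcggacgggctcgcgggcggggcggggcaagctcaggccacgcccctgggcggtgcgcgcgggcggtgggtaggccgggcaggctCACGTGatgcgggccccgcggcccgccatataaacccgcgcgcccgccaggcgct
Of the 33 genes, 30 were matched to such a window (all but FDFT1, SQLE and FASN). On both strands, TCACCCCAC was found in 1 of these 30 genes, SREBF2 (3.33%), and in 0.45% of all 27305 genes with a window, and the looser form TCACNCCAC, which includes it, was likewise found in SREBF2 alone and in 1.09% of all genes. CACGTG was found in 3 of 30 (10%; INSIG1, SC5D and SCAP) and in 7.73% of all genes. A match of these letters is not a measured site.

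In the mevalonate pathway, which leads from acetyl units to farnesyl diphosphate, the late kinase and decarboxylase genes differed most. HMGCS1, PMVK, MVD, MVK and IDI1 were called higher in 786-O against HK2 (all genes 41.6%), and FDPS was not called. In 786-M1A against HK2, 4 of the 6 rose and 1 fell (all genes 41.6% and 43.3%). MVD, the decarboxylase that makes isopentenyl diphosphate, stood at 44.9, 46.1 and 43.3 CPM in HK2, at 70.1, 64.3 and 59.8 CPM in 786-O and at 86.4, 75.4 and 78.3 CPM in 786-M1A, without overlap. Its log2 fold change was 0.53 ± 0.06 in 786-O and 0.84 ± 0.06 in 786-M1A against HK2, and 0.31 ± 0.06 between the tumour lines (edgeR adjusted p = 0.000152). PMVK, the kinase before it, rose by 0.67 ± 0.07 and 0.81 ± 0.07 on the log2 scale against HK2, and the difference between the tumour lines, 0.13 ± 0.06, did not pass the threshold (edgeR adjusted p = 0.0812). That difference was called without replicate 3 of 786-M1A (0.0429), without the filter on low counts (0.02) and in a fit of these 2 lines alone (0.0349).

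HMGCS1, the synthase that makes HMG-CoA, lay in a narrow range of 188 to 198 CPM in HK2, 201 to 209 CPM in 786-O and 174 to 182 CPM in 786-M1A. The lines did not overlap, and 786-O was highest and 786-M1A lowest. On the log2 scale it differed by 0.10 ± 0.04 in 786-O against HK2 (edgeR adjusted p = 0.0161), -0.11 ± 0.04 in 786-M1A against HK2 (edgeR adjusted p = 0.0101) and -0.20 ± 0.04 between the tumour lines (edgeR adjusted p = 5.65e-05). The first call was lost without replicate 3 of HK2 (edgeR adjusted p = 0.0575) or of 786-O (0.0719), with upper-quartile scaling (0.154) or with quantile normalization and limma (0.02, limma adjusted p = 0.64), and the second without replicate 1 of HK2 (0.0526) or without the filter on low counts (0.0798). IDI1, the isomerase that supplies the other building block, was higher than in HK2 in 786-O (0.33 ± 0.04) and less so in 786-M1A (0.15 ± 0.04). FDPS, the synthase of farnesyl diphosphate, stood between 160 and 175 CPM in all 9 libraries. The exons of IDI1 and FDPS share 15% and 18.6% of their bases with antisense genes, IDI2-AS1 and RUSC1-AS1, and FDPS has 8 annotated pseudogenes, so that the counts of both are less certain.

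From squalene onward, 4 of the 11 genes rose, 4 fell and 3 were not called in 786-O against HK2, where 41.6% of all genes rose and 42.6% fell. In 786-M1A against HK2, 5 rose, 4 fell and 2 were not called (all genes 41.6% and 43.3%), so that both counts were near the shares of all genes. FDFT1, the squalene synthase at the branch to sterols, fell from 171 to 173 CPM in HK2 to 112 to 121 CPM in 786-O and 131 to 141 CPM in 786-M1A (log2 fold changes -0.55 ± 0.04 and -0.34 ± 0.04). SQLE, the next enzyme and the squalene epoxidase, rose from 199 to 204 CPM in HK2 to 339 to 360 CPM in 786-O and 294 to 313 CPM in 786-M1A (0.81 ± 0.04 and 0.60 ± 0.04). LSS, which closes the ring to lanosterol, rose as well (0.57 ± 0.06 and 0.70 ± 0.06), whereas CYP51A1, the lanosterol demethylase, fell (-0.25 ± 0.04 and -0.41 ± 0.04). Neighbouring steps thus differed from HK2 in opposite directions. Of the later enzymes, DHCR7 was called 0.16 ± 0.06 and 0.15 ± 0.06 higher, but both calls were lost without replicate 2 of HK2 (edgeR adjusted p = 0.133 and 0.147). In 786-O against HK2 the DHCR7 call was also lost without replicate 1 of 786-O (0.114) and in 786-M1A against HK2 without replicate 1 of 786-M1A (0.121). Both DHCR7 calls were lost with upper-quartile scaling (0.0779 and 0.104) and with quantile normalization and limma (limma adjusted p = 0.105 and 0.21). The isomerase gene EBP stood at 99.0 to 114 CPM over all libraries and the desaturase gene SC5D at 36.5 to 41.3 CPM, and only SC5D in 786-M1A against HK2 was called (-0.12 ± 0.04), a call that was lost without the filter on low counts (edgeR adjusted p = 0.0974).

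**Figure D2:**
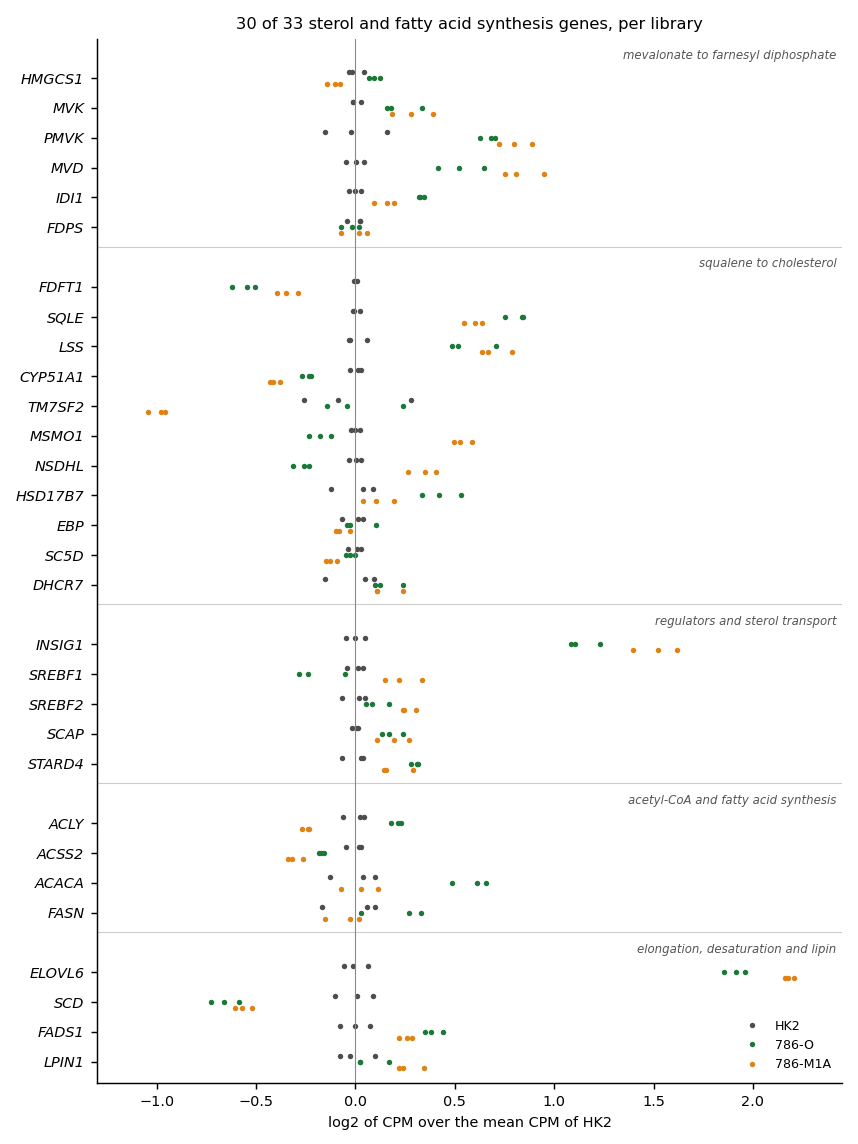
Log2 of the CPM in each library over the mean CPM of HK2 (x axis) for 30 of the 33 genes (rows, grouped by role), with 1 point per library for HK2 (grey), 786-O (green) and 786-M1A (orange). FADS2, SCD5 and ACACB are left out because their range would compress the axis, and INSIG1 and ELOVL6 are the genes whose tumour line points all lie beyond 1.

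The removal of the methyl groups from lanosterol-derived sterols takes an oxidase (MSMO1), a decarboxylating dehydrogenase (NSDHL) and a ketoreductase (HSD17B7) that work on the same substrate in turn. NSDHL and HSD17B7 were singled out for full values after their results were seen. MSMO1 stood at 99.6, 97.9 and 96.5 CPM in HK2, at 86.7, 83.4 and 90 CPM in 786-O and at 141, 138 and 147 CPM in 786-M1A. All 786-O libraries were below and all 786-M1A libraries above those of HK2. Its log2 fold change was -0.18 ± 0.04 in 786-O against HK2 (edgeR adjusted p = 0.000478), 0.53 ± 0.04 in 786-M1A against HK2 (edgeR adjusted p = 4.98e-11) and 0.71 ± 0.04 in 786-M1A against 786-O (edgeR adjusted p = 2.73e-12). This was the largest positive difference of the 33 genes between the tumour lines.

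NSDHL showed the same order, with 59.3, 60.9 and 61.9 CPM in HK2, 50.7, 51.6 and 48.9 CPM in 786-O and 80.3, 72.9 and 77.4 CPM in 786-M1A, again without overlap. The log2 fold changes were -0.27 ± 0.04 (786-O against HK2), 0.34 ± 0.04 (786-M1A against HK2) and 0.61 ± 0.04 (786-M1A against 786-O, edgeR adjusted p = 1.56e-10). HSD17B7 went the other way between the tumour lines. It stood at 11.3, 11.7 and 10.1 CPM in HK2, at 15.9, 13.9 and 14.7 CPM in 786-O and at 12.6, 11.3 and 11.8 CPM in 786-M1A, where the libraries overlapped with HK2. The log2 fold change was 0.43 ± 0.07 in 786-O against HK2 (edgeR adjusted p = 1.19e-05), 0.12 ± 0.08 in 786-M1A against HK2 (edgeR adjusted p = 0.161, but 0.40 with quantile normalization and limma, limma adjusted p = 0.000302) and -0.32 ± 0.07 in 786-M1A against 786-O (edgeR adjusted p = 0.000789). A pseudogene, HSD17B7P2, has its own row in the table, so reads of HSD17B7 may be split.

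Reads within 1 library need no scaling between libraries. MSMO1 had 8.92 ± 0.592 reads per read of HSD17B7 in HK2, against 5.87 ± 0.35 in 786-O and 11.9 ± 0.695 in 786-M1A (mean ± SD, n = 3). For NSDHL the ratio to HSD17B7 was 5.54 ± 0.517, 3.42 ± 0.273 and 6.46 ± 0.0925. The ratio was lowest in 786-O and highest in 786-M1A for both genes, with no overlap between these lines.

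The promoters of MSMO1, NSDHL and HSD17B7 are printed, and these genes were picked by their differences between the tumour lines. The windows lie on the plus strand of GRCh38.p14 at chr4:165327419-165327668 for MSMO1, chrX:152830813-152831062 for NSDHL and chr1:162790452-162790701 for HSD17B7. Capitals mark each CCAAT box, read as CCAAT or as ATTGG on the other strand, which binds the factor NF-Y, a known partner of SREBPs. In NSDHL a pair of these matches overlaps.
MSMO1: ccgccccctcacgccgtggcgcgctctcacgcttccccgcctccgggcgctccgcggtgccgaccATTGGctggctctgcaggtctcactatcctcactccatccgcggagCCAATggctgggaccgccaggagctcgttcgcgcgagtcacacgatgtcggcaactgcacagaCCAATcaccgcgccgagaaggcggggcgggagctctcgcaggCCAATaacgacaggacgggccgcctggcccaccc
NSDHL: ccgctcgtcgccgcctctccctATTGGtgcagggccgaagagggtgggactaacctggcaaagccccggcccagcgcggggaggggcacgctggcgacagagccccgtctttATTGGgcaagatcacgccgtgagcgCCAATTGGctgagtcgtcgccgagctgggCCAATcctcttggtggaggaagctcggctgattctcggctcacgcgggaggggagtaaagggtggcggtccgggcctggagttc
HSD17B7: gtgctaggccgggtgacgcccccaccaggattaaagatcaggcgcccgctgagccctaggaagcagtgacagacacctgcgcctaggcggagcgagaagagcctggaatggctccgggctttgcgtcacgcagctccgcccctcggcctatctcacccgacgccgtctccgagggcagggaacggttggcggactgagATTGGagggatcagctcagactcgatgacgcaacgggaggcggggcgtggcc
The MSMO1 window holds 4 matches, the NSDHL window 5 and the HSD17B7 window 1. At least 1 match was found in 22 of 30 genes of the list (73.3%) and in 37% of all 27305 genes, and at least 2 in 14 of 30 (46.7%) and in 11.5% of all genes. The genes with a match include some that rose and some that fell, such as INSIG1 and ACACB. A match of these letters is not a measured site, and a link between the matches and the differences was not tested.

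TM7SF2, the reductase that acts between CYP51A1 and the demethylation, had the lowest level per kb of exon of the 17 enzymes from HMGCS1 to DHCR7 in each line. It stood at 2.09, 1.44 and 1.62 CPM in HK2, at 1.56, 1.67 and 2.03 CPM in 786-O and at 0.885, 0.834 and 0.873 CPM in 786-M1A, from 58 to 86 counts per library in the first pair of lines and 32 or 33 in 786-M1A. HK2 and 786-O overlapped, and 786-M1A was below both. The log2 fold change was -0.97 ± 0.19 in 786-M1A against HK2 (edgeR adjusted p = 6.54e-05) and -1.02 ± 0.18 in 786-M1A against 786-O (edgeR adjusted p = 7e-05). The latter was -0.90 without replicate 3 of 786-O and -0.99 without replicate 2 of 786-M1A. With log2 counts, quantile normalization and limma it was -0.53 (limma adjusted p = 0.0758), and the difference of 786-M1A from HK2 turned to 0.47 (limma adjusted p = 0.0774). In that fit 786-O was also called higher than HK2, by 1.01 (limma adjusted p = 0.00154), where edgeR gave 0.05 ± 0.16.

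**Figure D3:**
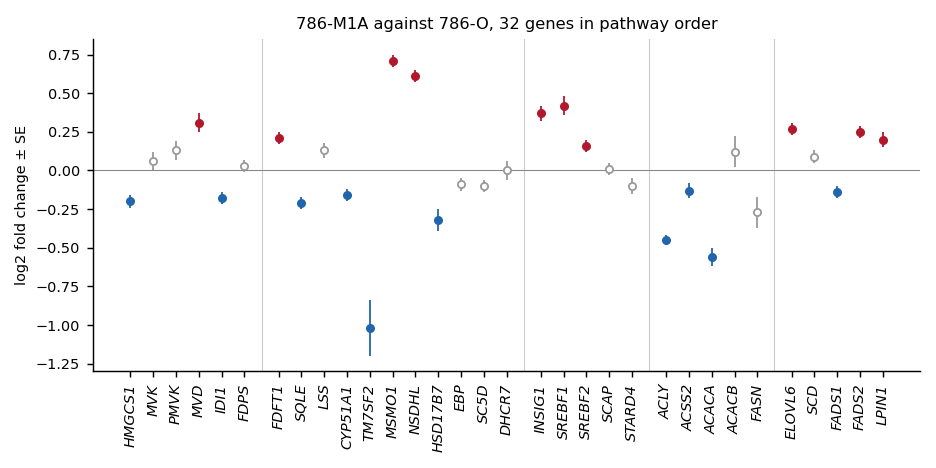
Log2 fold change of 786-M1A against 786-O (y axis, ± SE) for 32 of the 33 genes in pathway order (x axis), with vertical lines between the groups by role. Filled points passed the threshold (red higher, blue lower in 786-M1A) and open grey points did not. MSMO1 and NSDHL stand highest and TM7SF2 lowest, and SCD5 is left out because it had no count in 786-M1A.

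Of the 5 genes that supply and use acetyl-CoA, edgeR called none higher in 786-M1A against HK2 (against 41.6% of all genes) or against 786-O (27.9%), and 3 lower in each of these comparisons (43.3% and 28.0% of all genes), whereas 2 rose and 2 fell in 786-O against HK2 (41.6% and 42.6%). ACLY, which cleaves citrate to cytosolic acetyl-CoA and was singled out for its library values after its results were seen, stood at 898, 834 and 885 CPM in HK2, at 1011, 1021 and 986 CPM in 786-O and at 724, 738 and 741 CPM in 786-M1A. The lines did not overlap, with 786-O highest and 786-M1A lowest. The fitted log2 fold change was 0.21 ± 0.03 in 786-O against HK2 (edgeR adjusted p = 9.5e-06), -0.25 ± 0.03 in 786-M1A against HK2 (edgeR adjusted p = 6.99e-07) and -0.45 ± 0.03 between the tumour lines (edgeR adjusted p = 2.59e-10). ACSS2, which makes acetyl-CoA from acetate, was lower in 786-O (-0.17 ± 0.05) and in 786-M1A (-0.31 ± 0.05) than in HK2, and the former call was lost with quantile normalization and limma (limma adjusted p = 0.157). Its difference between the tumour lines (-0.13 ± 0.05, edgeR adjusted p = 0.0291) passed the threshold by little and was lost without any 1 of the 786-O libraries or without replicate 1 or 3 of 786-M1A (edgeR adjusted p from 0.0611 to 0.0848), and with DESeq2 (0.0755).

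Acetyl-CoA carboxylase makes malonyl-CoA in a cytosolic form, ACACA, which feeds fatty acid synthesis, and in a form at the mitochondrial membrane, ACACB, whose product restrains fatty acid import for oxidation. ACACA stood at 148, 132 and 154 CPM in HK2, at 220, 227 and 202 CPM in 786-O and at 137, 156 and 147 CPM in 786-M1A. The 786-O libraries were above all others, and HK2 and 786-M1A overlapped. The log2 fold change was 0.58 ± 0.06 in 786-O against HK2 (edgeR adjusted p = 4.52e-07), 0.02 ± 0.06 in 786-M1A against HK2 (edgeR adjusted p = 0.763) and -0.56 ± 0.06 between the tumour lines (edgeR adjusted p = 2.13e-06).

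ACACB stood at 16.5, 14.8 and 15.1 CPM in HK2, at 3.38, 3.96 and 3.24 CPM in 786-O and at 3.76, 3.89 and 3.78 CPM in 786-M1A. Both tumour lines were below HK2 and overlapped with each other. It was 4.39-fold lower in 786-O (log2 fold change -2.13 ± 0.08, edgeR adjusted p = 5.04e-16) and 4.06-fold lower in 786-M1A (-2.02 ± 0.08, edgeR adjusted p = 1.33e-15), and the difference between the tumour lines was not called (0.12 ± 0.10, edgeR adjusted p = 0.355), although it was 0.28 with quantile normalization and limma (limma adjusted p = 0.0215). Per read of ACACB there were 9.34 ± 0.751 reads of ACACA in HK2, against 61.7 ± 3.94 in 786-O and 38.4 ± 1.93 in 786-M1A. Per kb of exon, ACACA was at 11.1 and ACACB at 1.07 CPM per kb in HK2, and at 16.6 and 0.243 CPM per kb in 786-O.

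FASN, the synthase that makes palmitate, stood at 439, 376 and 452 CPM in HK2, at 531, 509 and 430 CPM in 786-O and at 414, 427 and 380 CPM in 786-M1A. HK2 overlapped with both tumour lines, the tumour lines did not overlap with each other, and edgeR called no comparison (log2 fold changes 0.21 ± 0.10, -0.05 ± 0.10 and -0.27 ± 0.10, in the order 786-O against HK2, 786-M1A against HK2 and between the tumour lines). Without replicate 3 of 786-O, the lowest of its line, the first and the last were called (0.30, edgeR adjusted p = 0.00176, and -0.35, edgeR adjusted p = 0.00122). The first was also called without replicate 3 of HK2 (0.27, edgeR adjusted p = 0.04) and with quantile normalization and limma (limma adjusted p = 0.0454). The last was called with DESeq2 (DESeq2 adjusted p = 0.0295), with limma (limma adjusted p = 0.00403), with upper-quartile scaling (edgeR adjusted p = 0.0377) and in a fit of the 2 lines alone (0.0172).

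The widest differences of the list were in desaturation. FADS2 encodes the desaturase that opens the synthesis of long polyunsaturated fatty acids, and FADS1 the desaturase that acts later in the same pathway. The genes lie head to head on chromosome 11 (GRCh38, FADS1 from 61799627 to 61829318 on the minus strand and FADS2 from 61792980 to 61867354 on the plus strand, in GENCODE 44), and their RefSeq start sites are 599 or 800 bases apart, depending on the FADS2 start.

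FADS2 stood at 26.2, 26.3 and 26.3 CPM in HK2, at 544, 485 and 495 CPM in 786-O and at 643, 572 and 595 CPM in 786-M1A. Every tumour library was over 10 times higher than those of HK2, and the tumour lines did not overlap. It was 19.3-fold higher in 786-O (log2 fold change 4.27 ± 0.05, edgeR adjusted p = 3.63e-23) and 23.0-fold higher in 786-M1A (4.52 ± 0.05, edgeR adjusted p = 1.53e-23), and 0.25 ± 0.04 higher on the log2 scale in 786-M1A than in 786-O (edgeR adjusted p = 9.59e-05).

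FADS1 stood at 219, 197 and 208 CPM in HK2, at 282, 265 and 271 CPM in 786-O and at 249, 242 and 253 CPM in 786-M1A. It was lowest in HK2 and highest in 786-O, without overlap, and its differences were far smaller than those of its neighbour. Log2 fold changes were 0.39 ± 0.04 in 786-O against HK2 (edgeR adjusted p = 1.02e-08), 0.26 ± 0.04 in 786-M1A against HK2 (edgeR adjusted p = 5.31e-06) and -0.14 ± 0.04 between the tumour lines (edgeR adjusted p = 0.00724), where the call was lost without replicate 1 of 786-O (edgeR adjusted p = 0.0597).

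Per read of FADS1 there were 0.127 ± 0.00714 reads of FADS2 in HK2, against 1.86 ± 0.0579 in 786-O and 2.43 ± 0.129 in 786-M1A (mean ± SD, n = 3). Per kb of exon, FADS1 was the higher of the pair in HK2 (20.3 against 2.49 CPM per kb) and FADS2 the higher in 786-O (48.1 against 26.6) and 786-M1A (57.2 against 24.3). With the MANE Select transcripts the order was the same, with 47.6 against 8.5 CPM per kb in HK2 and 62.5 against 164 in 786-O. The exons of FADS1 and FADS2 share 490 bases on opposite strands, which are 4.79% of the exon bases of FADS1 and 4.64% of those of FADS2.

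The stearoyl-CoA desaturases SCD and SCD5 set the double bond of oleate and palmitoleate. SCD stood at 1221, 1069 and 1154 CPM in HK2, at 765, 695 and 725 CPM in 786-O and at 774, 755 and 800 CPM in 786-M1A. All tumour libraries were below HK2, and the tumour lines overlapped. The log2 fold change was -0.66 ± 0.04 in 786-O (edgeR adjusted p = 7.35e-11) and -0.56 ± 0.04 in 786-M1A (edgeR adjusted p = 6.62e-10) against HK2, and 0.09 ± 0.04 between the tumour lines (edgeR adjusted p = 0.0916), which was called without replicate 1 of 786-O (0.14, edgeR adjusted p = 0.0207).

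SCD5 stood at 26.6, 25.9 and 25.7 CPM in HK2 (825 to 1190 counts), at 0.677, 0.797 and 0.662 CPM in 786-O (28 to 30 counts) and at 0 counts in each 786-M1A library. The 3 lines were fully apart. It was 36.6-fold lower in 786-O than in HK2 (log2 fold change -5.19 ± 0.10, edgeR adjusted p = 4.4e-20). Against a floor of 3 counts per library, at most 0.0829 CPM, it was at least 314-fold lower in 786-M1A than in HK2 and at least 8.59-fold lower than in 786-O (edgeR adjusted p = 9.12e-21 and 4.1e-09). SCD was thus the only SCD gene of this pair with a count in 786-M1A, and there were 44 ± 2.43 reads of SCD per read of SCD5 in HK2 and 1033 ± 140 in 786-O. Floors cover counting error alone.

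**Figure D4:**
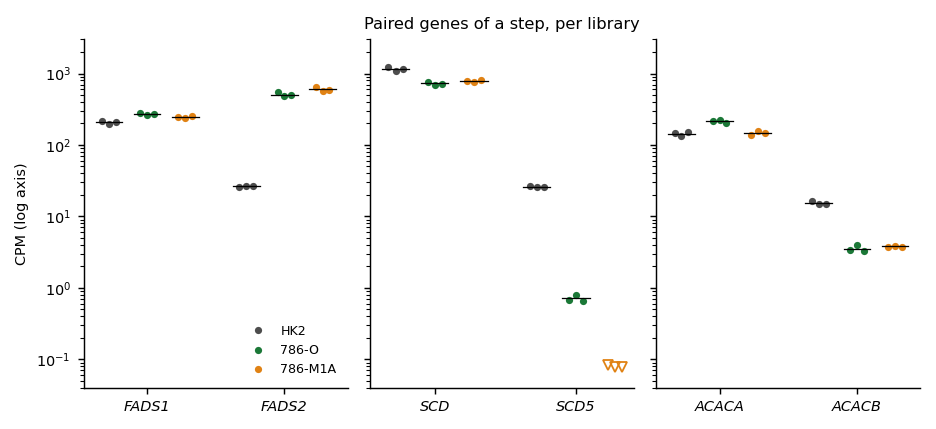
CPM per library (y axis, log scale) of FADS1 and FADS2, SCD and SCD5, and ACACA and ACACB in HK2 (grey), 786-O (green) and 786-M1A (orange), with a bar at the mean of each line. FADS2 rises from about 26.3 CPM in HK2 to 508 and 603 CPM, SCD5 and ACACB fall, and open triangles mark the floor of 3 counts for SCD5 in 786-M1A, where no read was counted.

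ELOVL6, which lengthens palmitate to stearate, stood at 24.0, 22.1 and 22.8 CPM in HK2, at 83.3, 86.7 and 89.6 CPM in 786-O and at 103, 104 and 106 CPM in 786-M1A. The lines did not overlap, in the same order as for FADS2. It was 3.76-fold higher in 786-O (log2 fold change 1.92 ± 0.05, edgeR adjusted p = 7.78e-20) and 4.54-fold higher in 786-M1A (2.19 ± 0.05, edgeR adjusted p = 6.94e-21) than in HK2, and 0.27 ± 0.04 higher on the log2 scale in 786-M1A than in 786-O (edgeR adjusted p = 9.13e-06). LPIN1, a phosphatidate phosphatase that turns fatty acids toward glycerolipids, was at 44.6 to 50.4 CPM in HK2, 47.9 to 53.0 CPM in 786-O and 54.9 to 59.9 CPM in 786-M1A, and only the differences of 786-M1A from HK2 (0.27 ± 0.05) and from 786-O (0.20 ± 0.05) were called. Without replicate 1 of HK2, LPIN1 was also called in 786-O against HK2 (0.13, edgeR adjusted p = 0.0455).

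By the order of the lines, 5 genes rose from HK2 over 786-O to 786-M1A with both steps called: MVD, INSIG1, SREBF2, ELOVL6 and FADS2. CYP51A1, ACSS2 and SCD5 fell over the same order with both steps called. The step from HK2 to 786-O for SREBF2, and each step for ACSS2, lost its call under some alternatives. Another 4 genes (MVK, PMVK, LSS and SCAP) were higher in both tumour lines than in HK2, with 786-M1A above 786-O by an amount that was not called, although that of LSS was called without replicate 1 of 786-O (edgeR adjusted p = 0.0018) or replicate 2 of 786-M1A (0.035), with RLE scaling (0.0457), without the filter on low counts (0.00725) and with DESeq2 (DESeq2 adjusted p = 0.0465). MSMO1, NSDHL and SREBF1 were lowest in 786-O and highest in 786-M1A, and HMGCS1 and ACLY were lowest in 786-M1A and highest in 786-O. These 5 genes were called in opposite directions against HK2 in the tumour lines. How many of all genes tested followed each of these orders was not counted, so the counts do not set the list apart.

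Further genes of the pathway were taken from 5 lists that did not enter the 33. Their counts are to be read against all genes tested, of which 41.6% rose and 42.6% fell in 786-O against HK2, 41.6% rose and 43.3% fell in 786-M1A against HK2, and 27.9% rose and 28.0% fell between the tumour lines. Of 10 genes for SREBP processing and degradation, 5 rose and 4 fell in 786-O against HK2, 6 rose and 4 fell in 786-M1A against HK2, and 1 rose and 2 fell between the tumour lines. ERLIN1, which takes part in the degradation of sterol-regulated proteins, rose most (98.6 CPM in HK2 against 166 CPM in both tumour lines, log2 fold change 0.75 ± 0.04 in each), and NR1H3, the sterol-activated receptor LXR alpha, fell most (7.46 CPM in HK2 against 3.15 in 786-O and 3.80 in 786-M1A). Between the tumour lines INSIG2, the second INSIG gene, rose by 0.25 ± 0.06 and MBTPS2, a protease that releases SREBPs, fell by 0.44 on the log2 scale.

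Of 13 genes for sterol uptake, release and storage, 10 were tested, and 4 rose and 4 fell in each comparison with HK2, close to the shares of all genes. SCARB1, a receptor for lipoprotein cholesterol, rose from 131 ± 0.608 CPM in HK2 to 211 ± 5.10 CPM in 786-O and to 340 ± 6.99 CPM in 786-M1A (SD, n = 3), with log2 fold changes of 0.68 ± 0.04 and 1.38 ± 0.04 against HK2 and 0.69 ± 0.03 between the tumour lines (edgeR adjusted p = 2.85e-13). CYP27A1, a sterol hydroxylase, stood at 30.4 CPM in HK2 (882 to 1414 counts), 0.271 CPM in 786-O (7 to 15 counts) and 0.0541 CPM in 786-M1A (0 to 3 counts). Of the 10 genes of the isoprenoid branch, 3 rose and 5 fell in 786-O against HK2 and 3 rose and 6 fell in 786-M1A against HK2. PDSS1, for the side chain of coenzyme Q, rose (0.90 ± 0.08 and 0.76 ± 0.08), and ACAT2, a cytosolic thiolase that makes acetoacetyl-CoA, fell (-0.73 ± 0.04 and -0.98 ± 0.05).

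Of 19 further genes for elongation, desaturation and acyl-CoA formation, 17 were tested, of which 5 rose and 9 fell in 786-O and 6 rose and 10 fell in 786-M1A against HK2. ACSL1, which activates long fatty acids to acyl-CoA, rose from 11.6 ± 0.620 CPM in HK2 to 29.0 ± 0.186 CPM in 786-O and to 88.3 ± 2.44 CPM in 786-M1A, with a log2 fold change of 1.61 ± 0.04 between the tumour lines (edgeR adjusted p = 1.3e-17). ELOVL4, an elongase of very long fatty acids, stood at 12.9 CPM in HK2 (388 to 594 counts), had at most 1 count per library in 786-O and none in 786-M1A. ELOVL7, another elongase, fell from 33.2 CPM in HK2 over 18.6 CPM in 786-O to 6.28 CPM in 786-M1A (-1.56 ± 0.07 between the tumour lines).

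Of 15 genes for triglyceride synthesis and lipid droplets, 13 were tested. In 786-O against HK2, 8 rose and 3 fell, in 786-M1A against HK2, 10 rose and 3 fell, and between the tumour lines 7 rose and 1 fell. The acyltransferase genes AGPAT3 (63.8, 249 and 249 CPM in HK2, 786-O and 786-M1A) and AGPAT2 (33, 95.0 and 141 CPM) led the rises against HK2. Of the genes tested, DGAT2, the last enzyme of triglyceride synthesis, fell most against HK2 (16.4, 7.89 and 10.7 CPM). Between the tumour lines G0S2, an inhibitor of triglyceride breakdown, rose most (7.07 ± 0.565 CPM in 786-O against 23.6 ± 1.27 CPM in 786-M1A, log2 fold change 1.74 ± 0.08, edgeR adjusted p = 4e-13), and GPAM, the first acyltransferase of the pathway, fell by 0.51 on the log2 scale.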

How the data were processed

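Libraries were prepared with TruSeq Stranded mRNA and sequenced on a NextSeq, 3 per line. The authors counted reads on genes (Rsubread per the methods, featureCounts and GRCh38 per the submitters' processing notes) and deposited whole-number counts without normalization or filter; the annotation version and the use of strand are not given in the sources used here. All 9 columns matched a sample. NCBI identifiers were paired with symbols through RefSeq (27745 of 28395 genes), and positions and overlaps come from GENCODE 44.

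Counts were scaled with TMM in edgeR 4.0.16 (R 4.3.3), genes averaging 50 counts or more were kept, and the 3 lines were compared as contrasts of one robust quasi-likelihood fit of all 9 libraries. Adjustment was by Benjamini-Hochberg across the 12695 genes kept, with a threshold of 0.05. Alternatives were RLE and upper-quartile scaling, no filter, at least 10 counts in every library, DESeq2 1.42.0, log2 counts (0 set to 0.5) with quantile normalization and limma 3.58.1 in place of the VSN step of the methods, a fit restricted to 2 lines, a block for the replicate number, and each library left out in turn. The models were tested on simulated counts for 786-O against HK2, with 200 of 12695 genes changed. edgeR recovered 94 of 100 genes changed by 0.5 on the log2 scale and 100 of 100 changed by 1, with 21 false calls. limma recovered 92 and 100 of these and DESeq2 89 and 100, with 17 false calls each. For each tool the false calls were a larger share of its calls than the threshold of 0.05. In the data, edgeR called 10693 of the 12695 genes in this comparison, and recovery with that many genes changed was not tested. Per-kb levels were also computed on MANE Select lengths, an alternative chosen after seeing the data.

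Values in every library are given for genes at least 2-fold different in a comparison and for gene pairs of a step. Other genes are given by range, unless the text says that a gene was picked for its values. MVD, MSMO1 and FASN meet neither rule, and their library values are given as well. The genes and lists were chosen with earlier results of these data known. Depth limits low genes: 3 counts are 0.0647 to 0.0964 CPM, and floors cover counting error only. Some genes of the pathway are not reported here.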

Additional observations from a re-analysis of the deposited data

Results flagged for a closer look

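Among the 33 genes, 5 were called in opposite directions against HK2 in the tumour lines. For these the difference was tested by the contrast of 786-M1A against 786-O, since both comparisons use the same HK2 libraries. The share of all genes tested that were called in opposite directions was not counted. MSMO1 was lower than HK2 in 786-O and higher in 786-M1A, with a log2 fold change of 0.71 between the tumour lines. NSDHL (0.61) and SREBF1 (0.42) differed in the same direction. ACLY was higher than HK2 in 786-O and lower in 786-M1A (-0.45), and so was HMGCS1 (-0.20), whose calls against HK2 were lost under some alternatives.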

How the results depend on the processing

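Over 17 alternatives, the counts of called genes stayed within 1.5 times and the medians within the replicate spread, except for these. With at least 10 counts in every library, SCD5 was not in the fit and 1 gene was at least 2-fold lower in each of the 3 comparisons. The count of genes at least 2-fold lower in 786-M1A against 786-O was also 1 with quantile normalization and limma, and it ranged from 1 to 2 when 1 library was left out. The median log2 fold change in 786-O against HK2 ranged from 0.09 to 0.19 when 1 library was left out. With quantile normalization and limma, TM7SF2 turned to 0.47 in 786-M1A against HK2 and was called at 1.01 in 786-O against HK2. The cause was not tested. Of all 33 genes, 7 lost a call somewhere (30 calls in all, most of them of ACSS2, DHCR7, HMGCS1 and SREBF2) and 12 gained one (33 calls, among them EBP, FASN, FDPS, LSS and PMVK). No scaling moved the median of all genes by more than 0.05 on the log2 scale. The correlation of the deviations of same-numbered libraries was 0.215, 0.074 and 0.11 between the tumour lines, positive in all 3 pairs but not above 0.1 in each, and lay between -0.167 and 0.0376 in the comparisons with HK2, so the numbers were not taken to pair the samples. With the replicate number as a block, 13 in place of 10 genes were higher in 786-M1A against 786-O (LSS, PMVK and SCD added), and no call was lost. Low counts limit TM7SF2 and SCD5.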
